A study of Brassica napus with 6 samples.

Results

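Plastids carry a small genome of their own, and its photosynthetic and transcription genes were followed here in roots of oilseed rape (Brassica napus). The set holds 47 plastid-encoded genes of the photosystems, the cytochrome b6f complex, the NDH complex, the ATP synthase, Rubisco and the plastid RNA polymerase. Each was matched by its exact symbol to a probe that the platform annotation pairs with 1 gene. Of these, 46 had such a probe, 1 probe each, among 22746 probes tested. The exception was ndhB, whose probe is paired with several gene entries. The members were matched by symbol and not filtered by their values, but the set was chosen with earlier results of these data known.

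Total RNA came from roots of the cultivar Nourin No.16, harvested 4 weeks after germination, and each of 6 samples had its own array with 1 label. For 3 samples, reduced glutathione (GSH, a tripeptide thiol) had been put on fully expanded leaves for 4 days. It was brushed on daily at 100 mM, 50 µL for each of 3 leaves, in a buffered solution with the detergent Triton X-100. The other 3 samples came from plants left untreated over the same 4 days, so GSH and the application of a solution to the leaves cannot be told apart. All plants grew in aerated nutrient solution, 4 seedlings to a container, and the titles call the arrays of a group biological replicates.

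The plastid genome is read by a bacterial-type RNA polymerase, whose core is encoded by the plastid rpo genes, together with a phage-type polymerase from the nucleus. Many of its genes are transcribed jointly in operons and then processed. In green tissue the products build the photosynthetic membranes, while root plastids are mostly non-green and serve in nitrogen, sulfur, lipid and amino acid metabolism. Plastid mRNAs carry poly(A) tails mainly when they are about to be degraded, and the labelling kit named in the protocols primes from poly(A). How much of the plastid RNA it labelled was not tested.

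The 6 arrays were nearly identical in the deposited table. A probe ranged over a median of 1.91 millionths of a log unit across them, and a member over a median of 3.70, from 0.339 for rpoC1 to 700 for atpB. Each value below is an array's distance in millionths, on the deposited log scale, from the mean of the 3 controls. They are not fold changes, and neither a level nor the size of a difference can be compared between probes. The mean level over the arrays was above the upper quartile of all probes (6.06) for 20 members and below the lower quartile (5.67) for 5. These are positions of probe signals and do not rank the genes by expression. The probes are those of an Arabidopsis array. Among tissue markers with a probe, EXPA7 and EXPA18, expansin genes of root hairs, had levels of 6.13 and 5.95. Of the leaf markers, RCA stood at 6.04 and LHCB4.1, LHCB4.2 and LHCB4.3 at 5.75, 5.79 and 5.90. The defining root markers SCR, SHR and CASP1 had no probe paired with 1 gene. As levels cannot be compared between probes, the marker levels given here do not check the tissue label. RNA was extracted from whole roots, so a change in plastid number and a change in RNA per plastid could not be told apart.

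No member passed the threshold between treated and control roots. By limma, 0 of 46 had a Benjamini-Hochberg adjusted p under 0.05, against 0% of all probes, and the smallest adjusted p was 0.432, for petB. Before adjustment, 7 members or 15.2% had a limma p under 0.05, where the share over all probes was 6.75%. Of these 7, petB, atpE, rpoA, atpB and psbK had a higher mean after GSH, 10.9% of members where all probes gave 3.13%. The other 2, ndhF and psbN, had a lower mean, 4.35% where all probes gave 3.61%. Welch's test, in place of limma, gave 4 members before adjustment and 0 after it. The share of all probes under 0.05 by Welch's test is not given here, so these 4 have no background beside them. All 3 GSH arrays lay above all controls at 7 members, the first 5 with ndhI and rpoB, 15.2% against 5.63% of all probes. They lay below all controls at ndhF and psbN alone, 4.35% against 5.75%. With 3 arrays against 3, a two-sided exact permutation test of a single gene cannot give a p below 0.1. On simulated data limma called 0% of probes shifted by 4 within-group SDs and 13.6% of those shifted by 8. A count of 0 therefore does not show that no member changed.

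The share of members with a higher mean after GSH was slightly above that of all probes. This depended on single arrays and on the scaling. The mean after GSH was higher for 27 and lower for 19, and 58.7% higher compares with 51.9% of all probes. Without control 2 or GSH 2 the number was 23, or 50%, against 52.8% and 53.9% of all probes. The median moderated t was 0.24, against 0.05 over all probes. It was -0.01 without control 2, -0.000961 without GSH 2 and 0.08 without control 3. Without control 1, GSH 1 or GSH 3 it was 0.54, 0.55 or 0.49. The number at an unadjusted limma p under 0.05 was 4 without control 2 and again 4 without control 3. The shares of all probes in those 2 fits are not given here. Centring each array on its median, which adds 0.598 millionths to every difference, raised the number with a higher mean to 36, or 78.3%. The share over all probes then was 81.4%, above that of the members.

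**Figure D1:**
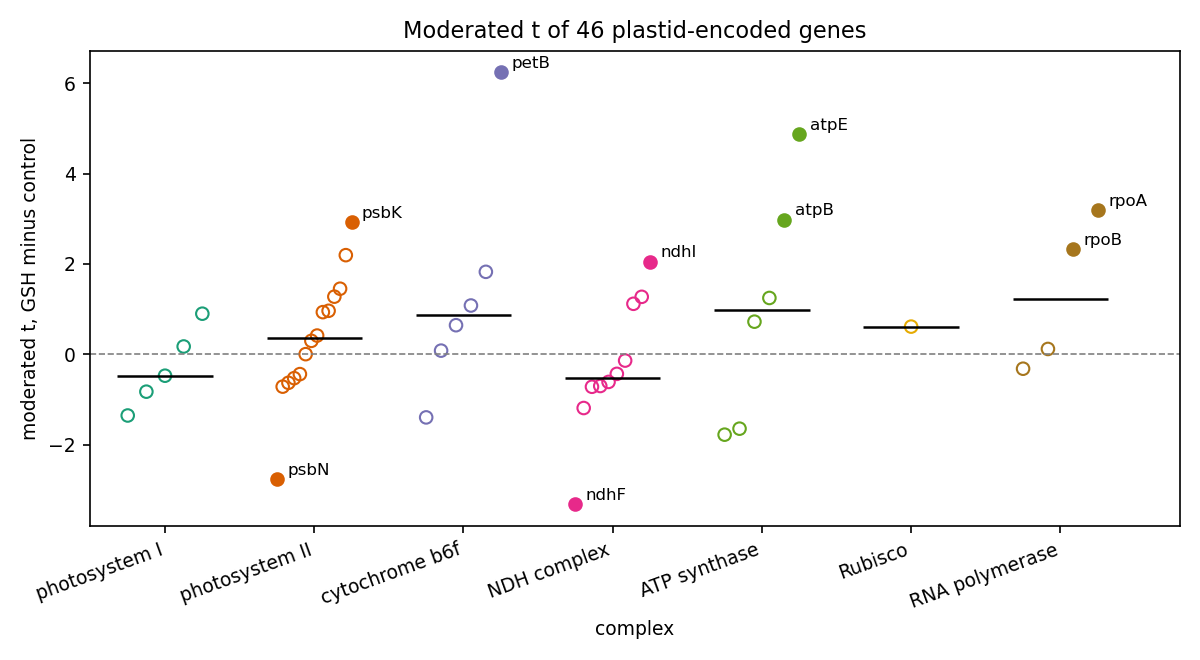
Moderated t of the 46 members (GSH minus control, vertical axis) by complex (horizontal axis). Each circle is 1 gene, filled and named where the 3 GSH and 3 control arrays do not overlap, and black lines are medians, from -0.52 for the NDH complex to 1.22 for the RNA polymerase.

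The ATP synthase held a pair of neighbouring genes, atpB and atpE, whose groups did not overlap. This enzyme makes ATP from the proton gradient across the thylakoid, with a soluble head and a membrane ring. The gene atpB, for the catalytic beta subunit of the head, stood at 108, 7.42 and -115 millionths in the controls and at 288, 584 and 204 in the GSH arrays. Its neighbour atpE, for the epsilon subunit that regulates the head, stood at 24.7, 9.12 and -33.8 in the controls and at 115, 180 and 102 after GSH. In both genes the GSH arrays lay above every control. The 6 arrays fell in the same order, from control 3 as the lowest to GSH 2 as the highest. This order was not particular to the pair, as rpoB, of another operon, and psbZ, a plastid gene outside the set, also had it. The difference was 359 millionths for atpB (SE 120, limma adjusted p = 0.687) and 132 for atpE (SE 27.1, limma adjusted p = 0.525). Leaving out GSH 2 lowered these to 246 and 108.

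When the deviations of each probe were rescaled to even out the spread between probes, both atpB and atpE passed over all probes, with limma adjusted p of 3.69e-08 and 1.53e-06. They were the only members to pass in any setting run. In that fit all members had the same SE, so these p do not measure the spread of a gene's own arrays. That rescaling called 337 of all probes, and on simulated data it also called probes that had not been shifted. The coding sequences of atpB and atpE overlap in the rape plastid annotation supplied as a reference (assembly Da-Ae), so the probes report neighbouring parts of what can be 1 transcript. They are not independent of each other.

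The groups overlapped in the other 4 ATP synthase genes, which are encoded together in the atpI-atpH-atpF-atpA operon. The gene atpF, for a stalk subunit, stood at 0.234, -0.356 and 0.121 in the controls and at -0.459, -0.399 and -0.268 after GSH. For atpH, the ring subunit, the controls stood at -0.775, 0.756 and 0.0183 and the GSH arrays at -8.06, 0.597 and -3.96. The groups overlapped in both, and the differences were -0.375 (SE 0.211, limma adjusted p = 0.867) and -3.81 (SE 2.31, limma adjusted p = 0.890). For atpH this was -1.68 without GSH 1 and -6.01 without GSH 2. The remaining pair, atpA of the head and atpI of the membrane part, had higher means with overlapping groups. Over the complex 4 of 6 genes had a higher mean, 5 after centring, when atpF became 0.223.

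**Figure D2:**
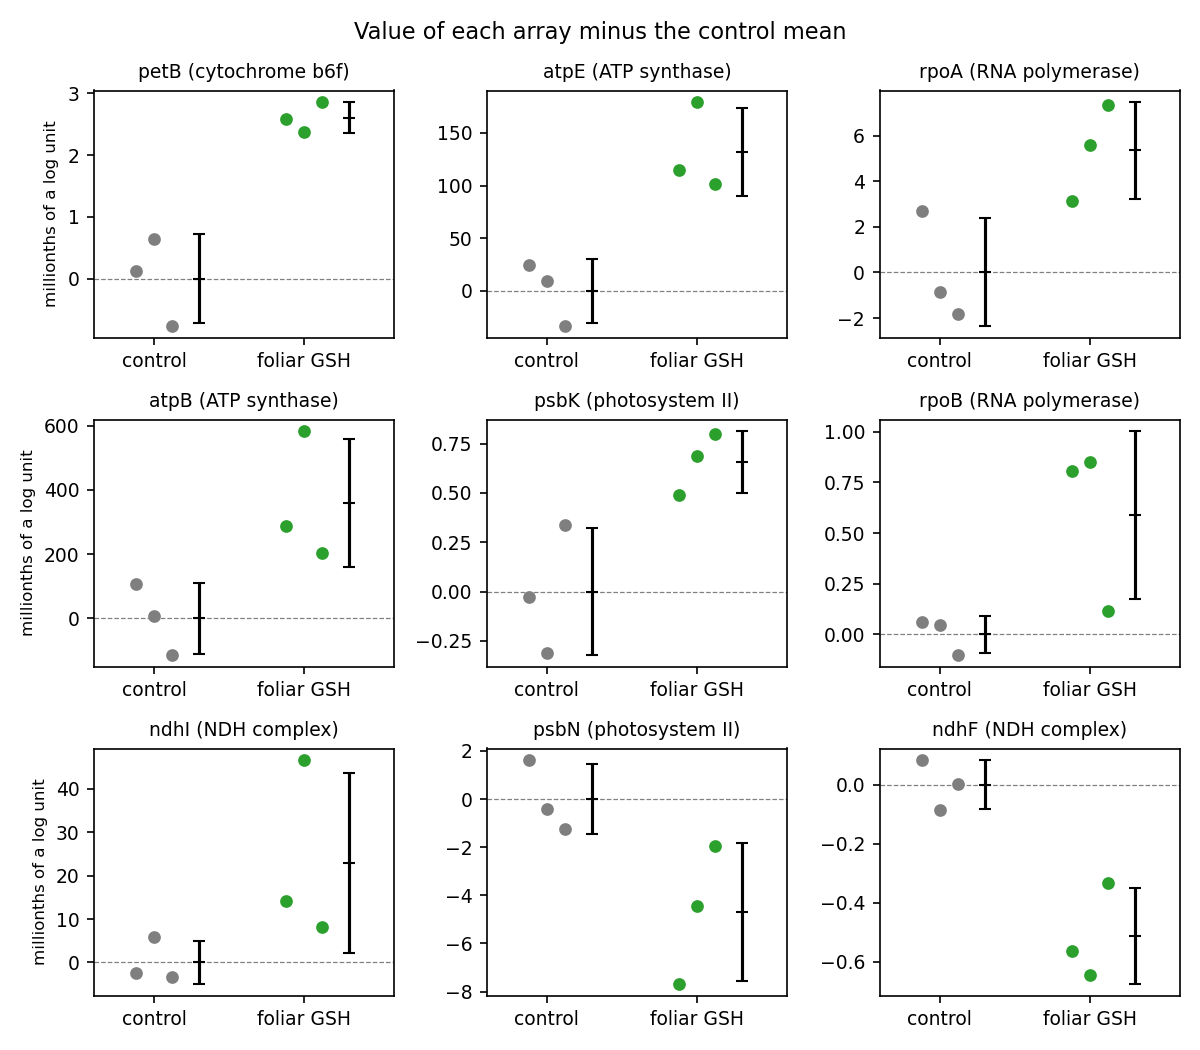
Value of each array minus the control mean, in millionths of a log unit (vertical axis, a separate scale for each panel), for the 9 members whose groups do not overlap. Points are arrays, and bars give mean and SD of 3 arrays. The atpB and atpE panels show GSH 2 as the highest array, and in the rpoB panel GSH 3, at 0.113, lies close to the controls.

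In the cytochrome b6f complex, which passes electrons from photosystem II to photosystem I, petB had the smallest p of all members. It encodes cytochrome b6. The controls stood at 0.120, 0.651 and -0.771 and the GSH arrays at 2.59, 2.37 and 2.87, so the lowest treated array was well clear of the highest control. The difference was 2.61 millionths (SE 0.418, unadjusted p = 0.00175, limma adjusted p = 0.432), and without single arrays it ran from 2.22 to 2.93. The next gene of the same operon, petD, encodes subunit IV. It stood at 1.28, -2.01 and 0.726 in the controls and at 7.11, 1.01 and 2.41 after GSH, a difference of 3.51 (SE 1.92, limma adjusted p = 0.863). Here GSH 2 was below control 1, the groups overlapped, and the difference was 1.71 without GSH 1.

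The gene petA, for cytochrome f, is encoded elsewhere and went the other way in sign. It stood at 1.61, 10.7 and -12.3 in the controls and at -36.1, 4.79 and -20.8 after GSH, a difference of -17.3 (SE 12.4, limma adjusted p = 0.926). For petN, a small subunit, the controls stood at 2.76, 1.76 and -4.52 and the treated arrays at 4.89, 0.681 and 2.09, a difference of 2.55 (SE 2.36, limma adjusted p = 0.968). Both overlapped. The petA difference was -7.98 without GSH 1 and -28.4 without GSH 2, and that of petN was 0.292 without control 3, 1.39 without GSH 1 and 3.93 without control 1. The small subunits petG and petL had higher means with t of 0.08 and 0.64. Of the 6 genes 5 had a higher mean, also after centring, but 3 without GSH 2, and 4 without control 2 or control 3.

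Photosystem II, the water-splitting complex, was the largest group, with 14 measured genes. Its psbK, for a small subunit, stood at -0.0263, -0.309 and 0.336 in the controls and at 0.488, 0.686 and 0.799 after GSH. All treated arrays were higher, and the difference was 0.657 (SE 0.225, limma adjusted p = 0.696). The gene psbN, known from tobacco as an assembly factor and not a lasting subunit, stood at 1.63, -0.404 and -1.23 in the controls and at -7.70, -4.43 and -1.96 after GSH. Its treated arrays all lay below the controls, with a difference of -4.70 (SE 1.70, limma adjusted p = 0.713). It lies between psbT and psbH, and is known to be read from the opposite strand. Both of those had a higher mean with overlapping groups.

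For psbC, an inner antenna protein, the controls stood at 10.2, -4.11 and -6.08 and the treated arrays at 10.9, 13.9 and 7.72. Control 1 lay among the treated arrays, and the difference was 10.8 (SE 4.94, limma adjusted p = 0.796). The gene psbE, for a cytochrome b559 subunit, stood at -0.0363, -0.0573 and 0.0937 in the controls and at 0.301, 0.216 and 0.0937 after GSH, a difference of 0.203 (SE 0.140, limma adjusted p = 0.919). Its lowest treated array and its highest control were level. The reaction-centre gene psbA, among the most abundant plastid messages of leaves, stood at -0.450, 1.12 and -0.673 in the controls and at 2.26, 1.80 and -0.988 after GSH. GSH 3 was its lowest array and GSH 1 its highest, so the difference of 1.03 (SE 1.06, limma adjusted p = 0.984) was smaller than its error. It was 0.407 without GSH 1, 0.637 without GSH 2, 1.59 without control 2 and 2.03 without GSH 3. The partner reaction-centre gene psbD had a lower mean, and psbB, for the other inner antenna, did as well. In all 9 of the 14 had a higher mean and 5 a lower one, and 11 a higher one after centring.

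Photosystem I, which passes electrons on to ferredoxin, showed no gene with separated groups. Its large reaction-centre genes psaA and psaB lie side by side in an operon. The controls of psaA stood at 0.0343, -0.412 and 0.377 and its treated arrays at 0.816, -0.278 and -1.45, so GSH 1 and GSH 3 lay at opposite ends. For psaB they stood at 0.128, 0.231 and -0.358, and at 0.461, 1.28 and -0.417. The difference was -0.304 for psaA (SE 0.643, limma adjusted p = 1.00) and 0.442 for psaB (SE 0.492, limma adjusted p = 0.993). Without GSH 3 that of psaA turned to 0.269, and with centring to 0.294. Without GSH 1 it was -0.864, without control 2 -0.510 and without control 3 -0.115. That of psaB was 0.0217 without GSH 2, 0.263 without control 3 and 0.872 without GSH 3.

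The iron-sulfur subunit gene psaC stood at -0.050, -0.066 and 0.116 in the controls and at 0.904, -1.33 and -1.26 after GSH, a difference of -0.562 (SE 0.680, limma adjusted p = 0.996) that centring turned to 0.0355. The controls were close together, and the treated arrays lay on both sides of them. The psaC difference was -1.30 without GSH 1, -0.179 without GSH 2 and -0.212 without GSH 3. For the small subunit gene psaI the controls stood at 19.6, -7.29 and -12.3 and the treated arrays at -74.9, 5.03 and -23.9. GSH 1 lay far below all others, and the difference was -31.3 (SE 23.1, limma adjusted p = 0.933), or -9.43 without that array and -49.4 without GSH 2. Of the 5 genes 2 had a higher mean, with 4 after centring, 3 without GSH 3, and 1 without control 2, control 3 or GSH 2.

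The NDH complex, which returns electrons to the plastoquinone pool, had a lower mean at 7 of 10 measured genes. The number with a higher mean, 3 of 10, was the same without control 3, GSH 2 or GSH 3, and when control probes were kept in the centring. It was 7 without GSH 1, 5 without control 1 or control 2, and 6 after centring, which shifts all probes alike. Welch's test and the rescaling cannot change the sign of a difference, so they do not test this number. Only ndhF, a membrane subunit, had an unadjusted p under 0.05. Its controls stood at 0.0823, -0.0857 and 0.00333 and its treated arrays at -0.565, -0.645 and -0.332, all below. The difference was -0.514 (SE 0.155, limma adjusted p = 0.641), and centring turned it to 0.0842. Its level of 5.51 was among the 5 under the lower quartile, which is a position of the probe signal and not a measure of expression.

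The gene ndhI, for an iron-sulfur subunit, went the opposite way. It stood at -2.38, 5.80 and -3.42 in the controls and at 14.1, 46.6 and 8.24 after GSH, with every treated array higher and GSH 2 far above the rest. The difference was 23.0 (SE 11.2, limma adjusted p = 0.823), and 11.2 without GSH 2. For ndhC the controls stood at 10.8, 8.23 and -19.0 and the treated arrays at -2.09, 22.0 and 24.4, a difference of 14.8 (SE 11.6, limma adjusted p = 0.939). In ndhD they stood at 0.909, 1.19 and -2.09, and at -1.04, -0.605 and -2.06, a difference of -1.24 (SE 1.04, limma adjusted p = 0.955). Both are membrane subunits, and in both control 3 was the lowest array and the groups overlapped. The ndhC difference was 5.26 without control 3 and 23.2 without GSH 1. That of ndhD was -2.28 without control 3, -0.781 without control 1 and -0.643 without control 2. The other 6 genes, ndhA, ndhE, ndhG, ndhH, ndhJ and ndhK, also had overlapping groups, with ndhH alone higher in mean.

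The large subunit of Rubisco, the carbon-fixing enzyme, is encoded by rbcL. Its controls stood at 0.053, -0.245 and 0.192 and its treated arrays at 0.072, 0.186 and 0.060. The treated arrays lay within the range of the controls, with a difference of 0.106 (SE 0.173, limma adjusted p = 1.00) that turned to -0.0165 without control 2. It was 0.202 without control 3 and 0.066 without GSH 2. The gene lies next to atpB in the rape plastid, but its highest array was control 3, which was the lowest of atpB.

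The plastid RNA polymerase transcribes most of the genes above. Its alpha subunit gene rpoA stood at 2.67, -0.841 and -1.83 in the controls and at 3.12, 5.58 and 7.36 after GSH. GSH 1 lay only just above control 1, and the difference was 5.36 (SE 1.68, limma adjusted p = 0.653). For rpoB, the beta subunit, the controls stood at 0.0593, 0.0443 and -0.104 and the treated arrays at 0.808, 0.850 and 0.113. These were all higher, with GSH 3 near the controls, and the difference was 0.591 (SE 0.254, limma adjusted p = 0.774).

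The other polymerase subunits come from the same operon as rpoB. The gene rpoC1 stood at -0.131, 0.045 and 0.086 in the controls and at 0.002, 0.090 and -0.249 after GSH. For rpoC2 these were 1.17, -0.566 and -0.604, and -1.19, 2.57 and -0.946. The groups overlapped in both, and the differences of -0.0523 (SE 0.164, limma adjusted p = 1.00) and 0.146 (SE 1.23, limma adjusted p = 1.00) were smaller than their errors. Leaving out GSH 3 turned rpoC1 to 0.046, as did centring, to 0.546. Without another array rpoC1 lay between -0.124 and -0.00933. Leaving out GSH 2 turned rpoC2 to -1.07, and leaving out control 2 or control 3 to -0.137 or -0.156. Without control 1, GSH 1 or GSH 3 it was 0.731, 0.812 or 0.692.

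**Figure D3:**
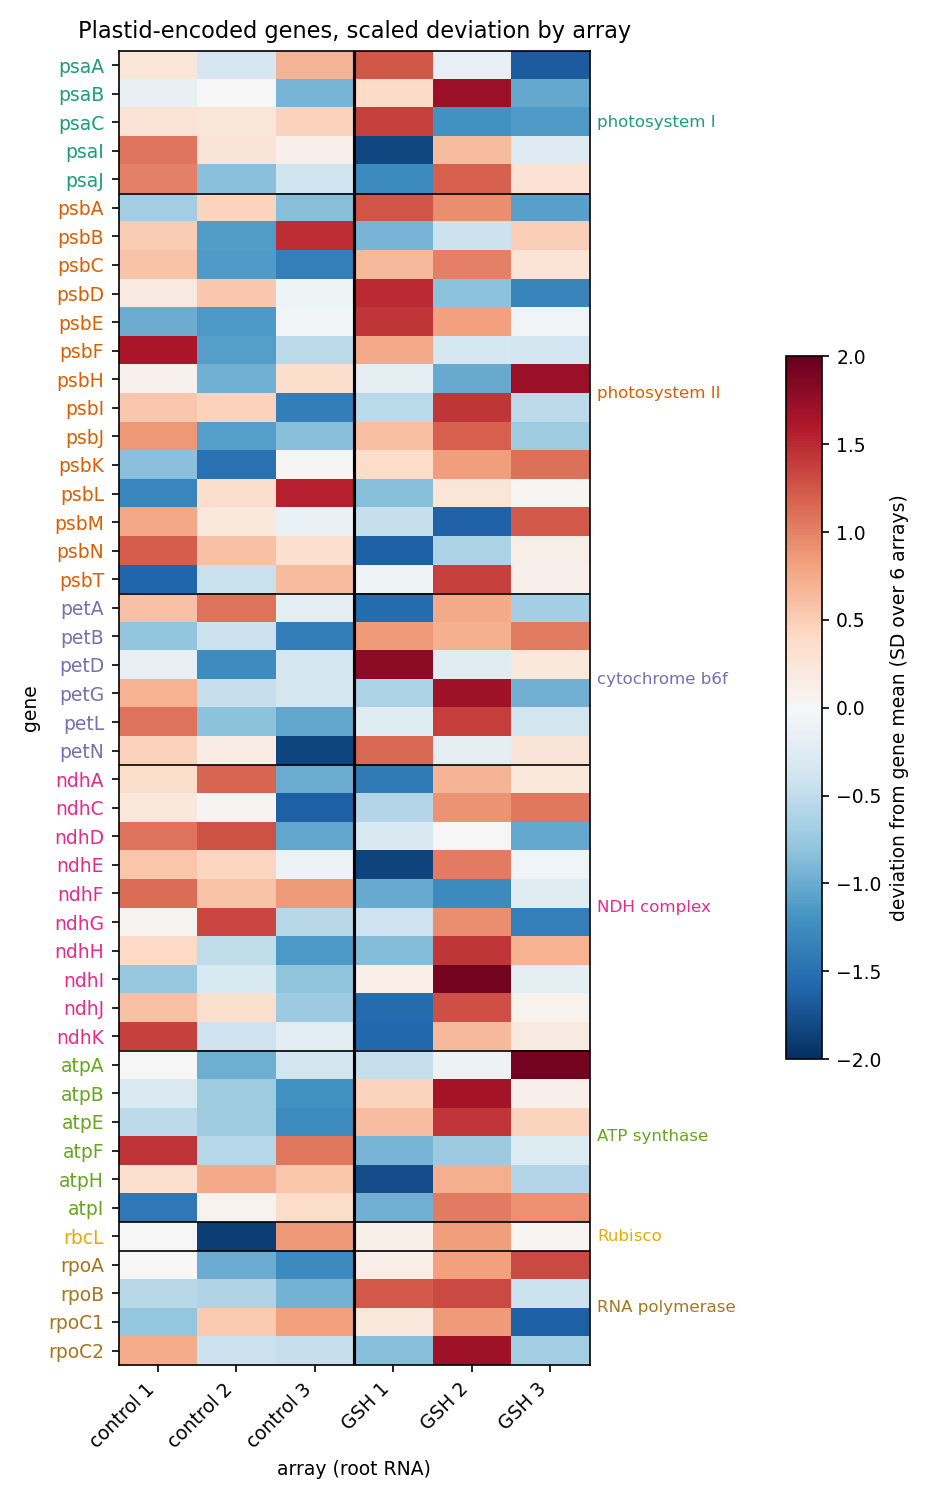
Deviation of each array (columns) from the mean of its gene, divided by the SD over 6 arrays, for the 46 members (rows, grouped by complex, the black vertical line parting controls from GSH arrays). Red is above and blue below the mean. The GSH 2 column is red for many genes of different complexes, and it holds the highest value of 18 members.

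One treated array stood out across the set. GSH 2 held the highest of the 6 values at 18 of 46 members, or 39.1%, where it did so at 15.3% of all probes. Control 3 held the lowest value at 13 members, 28.3% against 17.9% of all probes, and GSH 1 at 11, 23.9% against 15.6%. In 23 further plastid-encoded genes GSH 2 was highest at 12, or 52.2%, and control 3 and GSH 1 were lowest at 6 each. Control 1 was highest at 6 of these, or 26.1%, where it was so at 13.0% of the members and 13.3% of all probes. The treated arrays thus lay on both sides of the controls. For example petG ranged over 270 millionths, with GSH 2 at 176 and GSH 3 at -94.5, and its operon partner psaJ over 161, with GSH 2 at 82.5 and GSH 1 at -78.3. These genes were picked out after their values were seen. The part of GSH 2 in the number of members with a higher mean was not tested beyond leaving it out.

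**Figure D4:**
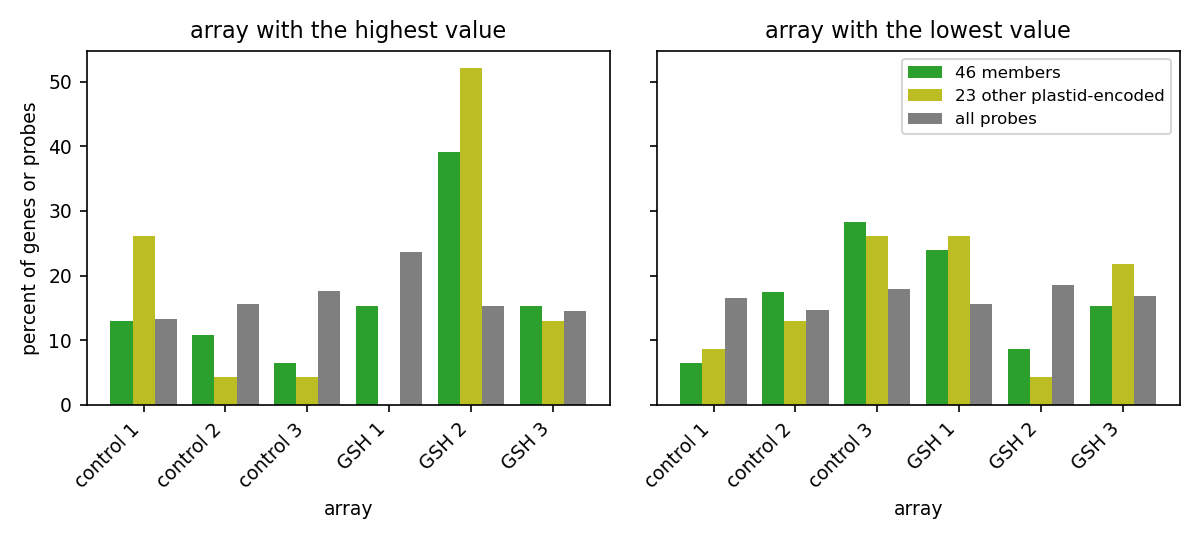
Share of genes or probes (percent, vertical axis) whose highest value (left) or lowest value (right) fell on each array (horizontal axis), for the 46 members, 23 other plastid-encoded genes and all probes. GSH 2 is highest at 39.1% of members and 52.2% of the other plastid-encoded genes, against 15.3% of all probes.

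Neighbouring genes of 1 operon had the same sign of difference in under 1 of 2 cases. All 46 members could be placed by symbol in the gene order of the rape plastid genome, and 36 pairs of members were direct neighbours among its protein-coding genes. Within operons the signs were alike in 12 of 25 neighbouring pairs, or 48%, and between transcription units in 7 of 11, or 63.6%. Any pair of probes would share a sign in 50.1% of cases. The highest array was the same in 6 of the 25 pairs and in none of the 11. As GSH 2 alone was highest at 39.1% of members, some pairs would share it regardless of operon. The share expected of any pair was not computed, so these counts do not show that operon partners vary together. The order of all 6 arrays was identical in 1 pair, atpE and atpB, and rpoB, which is not their neighbour, had this order as well. The other pair with overlapping coding sequences, psbD and psbC, had opposite signs.

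**Figure D5:**
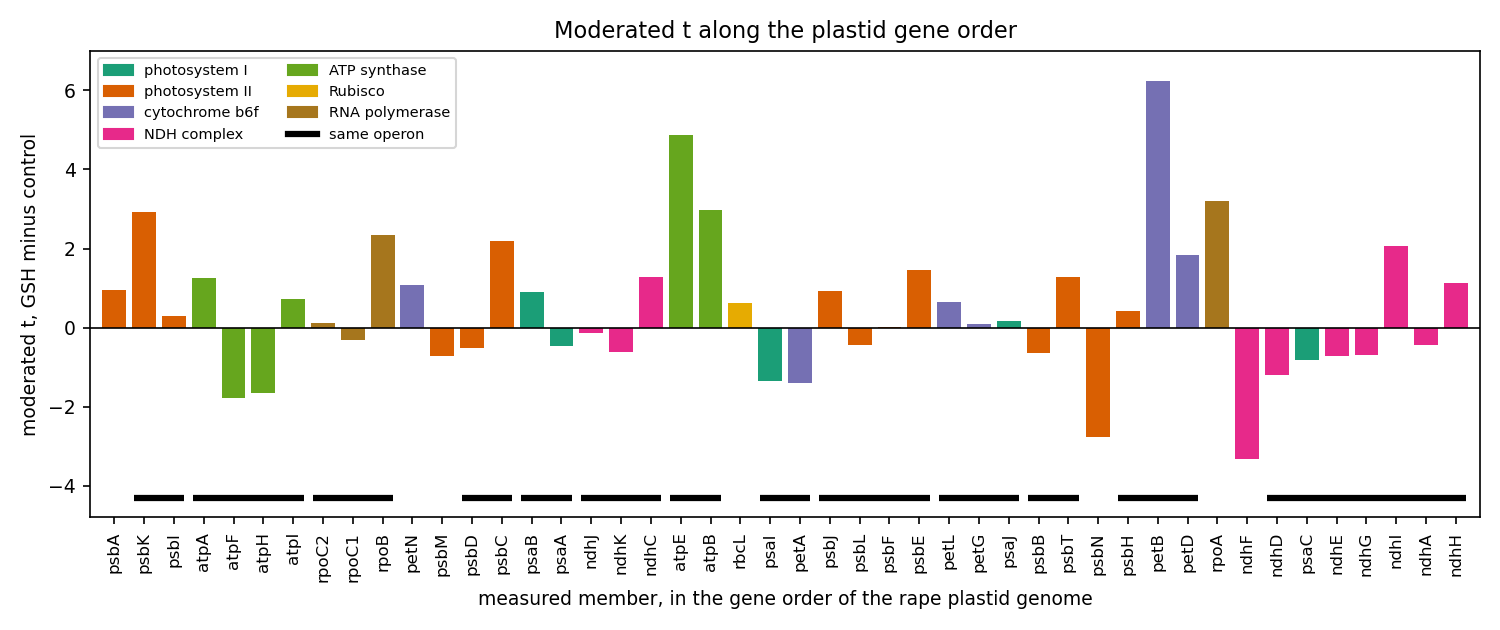
Moderated t (GSH minus control, vertical axis) of the 46 members in the gene order of the rape plastid genome (horizontal axis), coloured by complex. Thick lines join neighbouring members of 1 operon. The atpE and atpB pair and the petB and petD pair stand up together, while psbK and psbI, rpoB and rpoC1, and psbD and psbC differ in size or sign.

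Several operons held both signs. In the psbB-psbT-psbH-petB-petD unit 4 of 5 genes had a higher mean, with t from -0.63 for psbB to 6.24 for petB. The unit from ndhH to ndhD, which also holds psaC, had 2 of 7 higher, with t from -1.19 for ndhD to 2.05 for ndhI. In psbE-psbF-psbL-psbJ 3 of 4 were higher, with t no larger than 1.45. The genes psaI and petA were both lower, with t of -1.35 and -1.40, and in both GSH 1 was the lowest array. The 20 members not described singly by the rule for named genes had t from -0.72 to 1.28 and unadjusted p of 0.260 or more.

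Plastid genes outside these lists of members were measured as well. Of 15 measured genes for plastid ribosomal proteins 8 had a higher and 7 a lower mean (median t 0.21), and 0 passed by limma over all probes, with 1 at an unadjusted p under 0.05. That is 6.67% of them, near the 6.75% of all probes, and 3 of 15 had groups that did not overlap, against 11.4% of all probes. The gene with the small p was rpl36, whose controls stood at 0.168, -4.07 and 3.90 and whose treated arrays at 9.95, 28.3 and 18.7, all higher, a difference of 19.0 (SE 5.26, limma adjusted p = 0.610). The treated arrays were also all higher for rpl32, by 91.6 (SE 48.3, limma adjusted p = 0.852), and all lower for rps14, by -0.706 (SE 0.331, limma adjusted p = 0.808). Among 8 other plastid genes 5 had a higher mean (median t 0.17), and psbZ, a photosystem II subunit gene, differed by 12.5 (SE 5.41, limma adjusted p = 0.776) with all treated arrays higher. No other of these 8 had groups that did not overlap.

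Nuclear partners of the same complexes were sparsely measured. The 6 sigma factor genes, which direct the plastid polymerase to promoters, had no probe paired with 1 gene, and neither had the 7 genes for redox and transport functions of root plastids. Of 14 genes for nuclear polymerases and their partners 1 was measured, RPOTMP, a phage-type polymerase, with a difference of -0.035 (SE 0.153). Of 12 photosystem I genes 2 had a probe, and PSAN differed by 3.03 (SE 1.19, limma adjusted p = 0.744) with all treated arrays higher. The other, PSAE-1, differed by -1.37 (SE 1.88) with overlapping groups. Among all measured nuclear partners PSAN alone had groups that did not overlap, where 11.4% of all probes had such groups. The gene ATPC1, for the ATP synthase gamma subunit that turns within the head that atpB helps to form, differed by -0.0947 (SE 0.142). Among the leaf markers, LHCB4.1 differed by 0.280 (SE 0.187) and RCA, the Rubisco activase, by -0.0573 (SE 0.148), and in both the groups overlapped.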

How the data were processed

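The authors deposited 1 table of log2-like values for 22810 probes of an Arabidopsis array on 6 arrays. How probes were summarised and normalized, and with which log base, is not given in the sources used here, and the submitters' processing notes name R 2.7.2. The unit log2 was taken from the range of the deposited values. They were used without further normalization or filter, after 64 control probes were left out. Array numbers limit the precision, and depth does not apply.

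Groups followed the titles. The test was lmFit and eBayes of limma 3.58.1, run in R 4.3.3, with Benjamini-Hochberg adjustment over 22746 probes. Figures were drawn with matplotlib 3.10.9. The fits were tested on simulated data. At an adjusted p under 0.05, limma called 0% of probes shifted by 2 or 4 within-group SDs, and 13.6% of those shifted by 8. The members, operons, lists and alternatives were chosen with earlier results of these data known.

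The annotation paired 13513 probes with 1 gene and 503 with several, and none was named from the latter. Plastid gene order came from the RefSeq table of assembly Da-Ae, where all 46 members matched by symbol. Single values are given for up to 4 members of each complex with the smallest limma p, and for rbcL, psbA, psaA, psaB and rpoB. In each of 14 lists (162 genes, 54 measured) the rule took up to 3. Alternatives were quantile normalization, centring, brighter probes, the replicate number as a block, trended variance, Welch's test, rescaled probes, another threshold, and leaving out each array. The rescaling divided each probe's SD by the cube of its range over SD and took the root of order 4 as the new SD. Operons follow textbook knowledge. As each member had 1 probe, the rule for several probes had no effect on the members. In the mitochondrial list nad1, with 7 probes, and nad5, with 2, were each represented by the probe with the highest mean.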

Additional observations from a re-analysis of the deposited data

How the results depend on the processing

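The count of members past the threshold, 0 by limma, stayed at 0 in every setting run except the rescaling of probes, where it was 2, atpB and atpE. The rescaled fit gave all members the same SE, whatever the spread of their own arrays. The count over all probes, also 0, was 27 with quantile normalization, 4 among brighter probes, 1 with the replicate block, 337 after rescaling and 4 at an adjusted p under 0.10. It was 0 without any single array. Centring on array medians that include the control probes, chosen after seeing the data, shifted differences by 0.121 millionths in place of 0.598 and gave 15. The size of the shift thus depends on whether 64 control probes are in the median. The count of members at an unadjusted p under 0.05, 7 by limma, was 4 each with centring, the replicate block and Welch's test. It was 0 with quantile normalization, and 4 to 7 without single arrays. The share over all probes is given only for the main fit, so the counts in other settings have no background beside them. The number with a higher mean, 27, ran from 23 to 30 without single arrays. Centring gave 36 (78.3%, against 81.4% of all probes), and centring with control probes 29 (63.0%, against 64.1%). Quantile normalization left 6 members that still varied, 2 of them higher, with a median t of -0.92. The others held 1 value on all arrays, so that setting cannot test them. The median t of 0.24 became 0.86 with centring and ran from -0.0117 to 0.55 without single arrays.

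Of 26 named members, 15 turned sign or moved by over 1.5 times without 1 array, and 4 of these turned. In millionths, these ran from -0.864 to 0.269 for psaA, -0.0165 to 0.202 for rbcL, -0.124 to 0.046 for rpoC1 and -1.07 to 0.812 for rpoC2. Centring turned psaA to 0.294, psaC to 0.0355, ndhF to 0.0842, atpF to 0.223 and rpoC1 to 0.546. Quantile normalization turned psbE to -27.1. With control probes in the median, rpoC1 became 0.0688. The causes were not tested. Correlations between the scaled deviations of a control and a GSH array with the same number were -0.0214, -0.0156 and 0.0992, the best for that control in 1 of 3 cases, so the replicate numbers were not taken as pairs.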

Other observations

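The mitochondrion, the other organelle with a genome of its own, was measured as well. Of 19 listed mitochondria-encoded genes 15 had a probe paired with 1 gene, 8 with a higher and 7 with a lower mean after GSH (median t 0.03). By limma 0 passed over all probes and 0 had an unadjusted p under 0.05, where 6.75% of all probes did. GSH 2 held the highest value at 1 of the 15, or 6.67%, against 39.1% of the plastid members and 15.3% of all probes. Control 1 was highest at 7, or 46.7%, which compares with 13.0% of the plastid members and 13.3% of all probes. GSH 1 was lowest at 4, or 26.7%, and highest at 5, or 33.3%. For the plastid members these shares were 23.9% and 15.2%, and for all probes 15.6% and 23.7%. The list included ccb382, a gene of cytochrome c biogenesis, whose controls stood at 26.5, 16.1 and -42.6 millionths and whose treated arrays at -201, -44.5 and -28.2. Its groups overlapped, and GSH 1 was far below the rest, with a difference of -91.2 (SE 53.8, limma adjusted p = 0.878). The gene nad4L, of respiratory complex I, had all treated arrays below the controls, with a difference of -0.494 (SE 0.264, limma adjusted p = 0.853). It was the only 1 of the 15, or 6.67%, whose groups did not overlap, where 11.4% of all probes had such groups. The difference between the organelles in which array was highest was not tested, and it was noticed after the values were seen.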
